A study of Mus musculus with 2 samples.

Results

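Gene expression of the aryl hydrocarbon receptor (AHR) pathway was read from 17 probe sets of 8 genes, Ahr, Ahrr, Arnt, Tiparp, Cyp1a1, Cyp1a2, Cyp1b1 and Aldh3a1, out of 45037 probe sets that are not controls. These probe sets were chosen by gene name, as every probe set annotated to 1 of these genes and to no other, and no probe set of several genes included them. The genes themselves were chosen with earlier results of these data known. RNA came from HT22, a mouse hippocampal cell line of nerve cell type grown in medium with fetal calf serum. One culture received J147, a synthetic neurotrophic compound, for 1 h, and the other received the DMSO vehicle for 1 h. The methods state a J147 concentration of 10 μM and the sample labels 10 mM. Each RNA was hybridized to 1 Affymetrix GeneChip of the mouse genome, which reads a gene through 1 or more probe sets. Without replicates no test could be made, and an effect of J147 and a difference between the cultures themselves cannot be told apart. Of genes that mark cell types, 6 of 8 neuronal genes, such as Map2 and Snap25, had every probe set at the lowest value on both arrays, while 6 of 7 fibroblast genes were above it. Above it were also 2 of 7 astrocyte, 3 of 7 microglia, 1 of 4 oligodendrocyte and 0 of 5 endothelial genes. Of all single probe sets, 46.3% were at the lowest value with vehicle and 46.0% with J147. None of the scored marker genes was at least 1.5-fold different, and of all scored genes only 0.556% were higher and 0.81% lower by that size.

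AHR is a transcription factor that waits in the cytosol in a complex with HSP90 until it binds a ligand, such as dioxin or a tryptophan metabolite. It then enters the nucleus, pairs with ARNT and binds the xenobiotic response element, whose core is read as GCGTG. Its textbook targets are the CYP1 monooxygenases, the repressor AHRR, the aldehyde dehydrogenase ALDH3A1 and TIPARP, also named PARP7, a mono-ADP-ribosyltransferase that modifies AHR and lowers its activity. The question for these cells was whether Tiparp was higher with J147 together with the CYP1 genes or without them. Tiparp is known to be induced in other ways than through AHR.

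Tiparp was higher on the J147 array by all 3 of its probe sets, while the 5 probe sets of the CYP1 genes had identical values on both arrays, at or just above the lowest value of the table. The receptor gene Ahr, its partner Arnt and Aldh3a1 were each within 0.14 log2 units of no difference. All values below are gcRMA intensities on the log2 scale as the authors deposited them, a summary that corrects the background of each probe by its GC content. Differences are J147 minus vehicle after each array was scaled to a median of 100, which shifted every difference by less than 0.01 log2 units.

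The brightest Tiparp probe set, 1426721_s_at, read 10.38 with vehicle and 11.19 with J147 on the log2 scale. The log2 difference was 0.80, or 1.75-fold higher with J147. Among the 500 scored probe sets closest in level, the SD of the log2 differences was 0.13. It is a spread over probe sets of 1 pair of arrays and does not measure how replicate cultures would vary. Probe set 1452160_at read 9.36 with vehicle and 10.08 with J147, a log2 difference of 0.72 and a fold of 1.64, against an SD of 0.14 among its neighbours in level. The dimmest, 1452161_at, read 7.00 with vehicle and 8.08 with J147, a log2 difference of 1.08 and a fold of 2.11, against an SD of 0.20. The J147 value was thus the higher of the pair on each Tiparp probe set, and the largest of the 3 differences belonged to the dimmest probe set. Over the 3 probe sets the mean log2 difference was 0.87 with an SD of 0.19. They were designed on 1 target sequence and read the same RNA, so they are not replicates. The array controls were not all level. Their median log2 difference was 0.13 over 18 hybridization spikes, -0.16 over the 24 labelling spikes above the lowest value and -0.63 over 3 probe sets of 18S rRNA, and the part of these in the Tiparp difference was not tested. Control probe sets of Gapdh and Actb, along their 5′ to 3′ length, differed by 0.00 to 0.10.

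**Figure D1:**
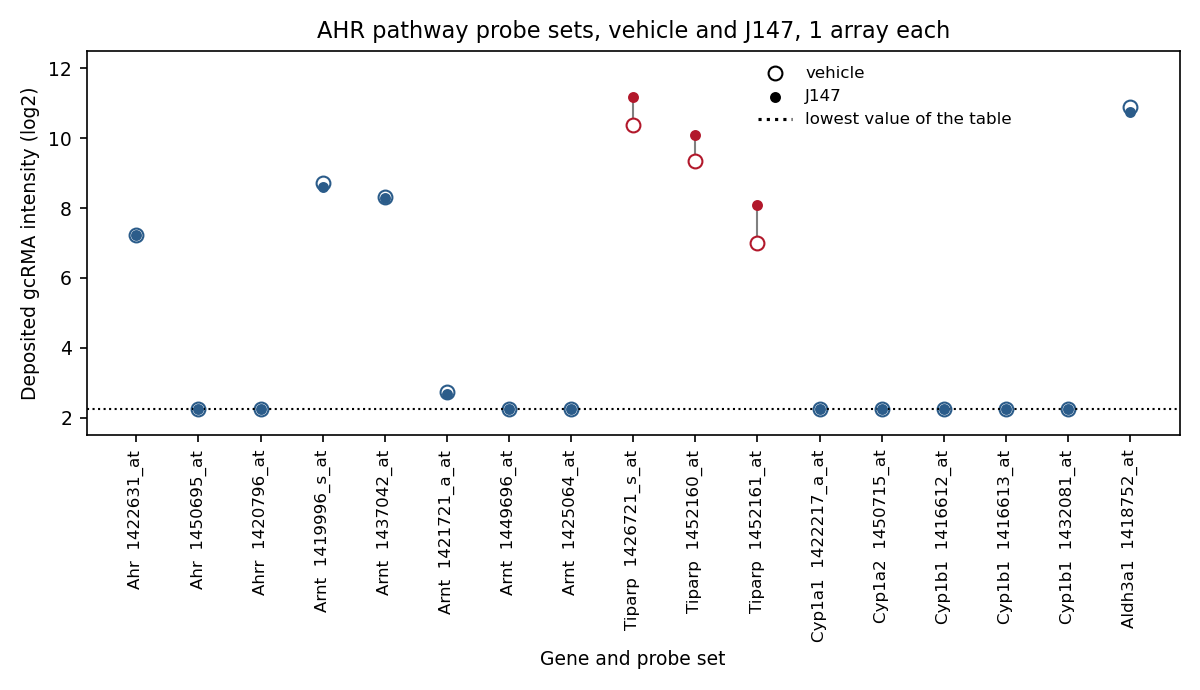
The 17 probe sets of the 8 genes (horizontal axis) are plotted by their log2 gcRMA intensity as deposited (vertical axis), with vehicle as open and J147 as filled circles from 1 array each. A dotted line marks 2.23, the table's lowest value, and Tiparp is in red, with J147 above vehicle by 0.72 to 1.08 log2 units.

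A probe set was scored where its mean scaled intensity over both arrays was above 100, as the methods describe. On this scale the lowest value was 95.4 with vehicle and 95.1 with J147. A scored probe set can thus lie close to the lowest value. Scoring kept 8 of the 17 probe sets of these genes, of Tiparp, Arnt, Ahr and Aldh3a1, and 22545 probe sets in all. Of these 22545, 193 or 0.856% had a value with J147 at least 1.5 times that with vehicle, among them 3 of the 8, all of Tiparp. At least 2-fold higher were 17 probe sets or 0.0754%, with Tiparp 1452161_at among them, at place 10 from the largest rise. The others of Tiparp were at places 59 and 90. At least 1.5-fold lower were 176 probe sets or 0.781%, with none of the 8 among them, and at least 2-fold lower were 16 or 0.071%, again with none. Counted as genes by their brightest probe set, 59 of 10611 scored genes or 0.556% were at least 1.5-fold higher, and Tiparp was at place 23. Of 2262 genes with at least 3 scored probe sets, 2 or 0.0884% had all of them at least 1.5-fold higher. All lower by that size was 1 gene or 0.0442%, which is none of the 8 genes. Of the 2 higher, one was Tiparp. The other was Klf7, a Kruppel-like transcription factor, with 4 probe sets between 0.62 and 0.74, which was named after its values were seen. Tiparp too was chosen with earlier results of these data known, so its places and shares only describe it and are no test.

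**Figure D2:**
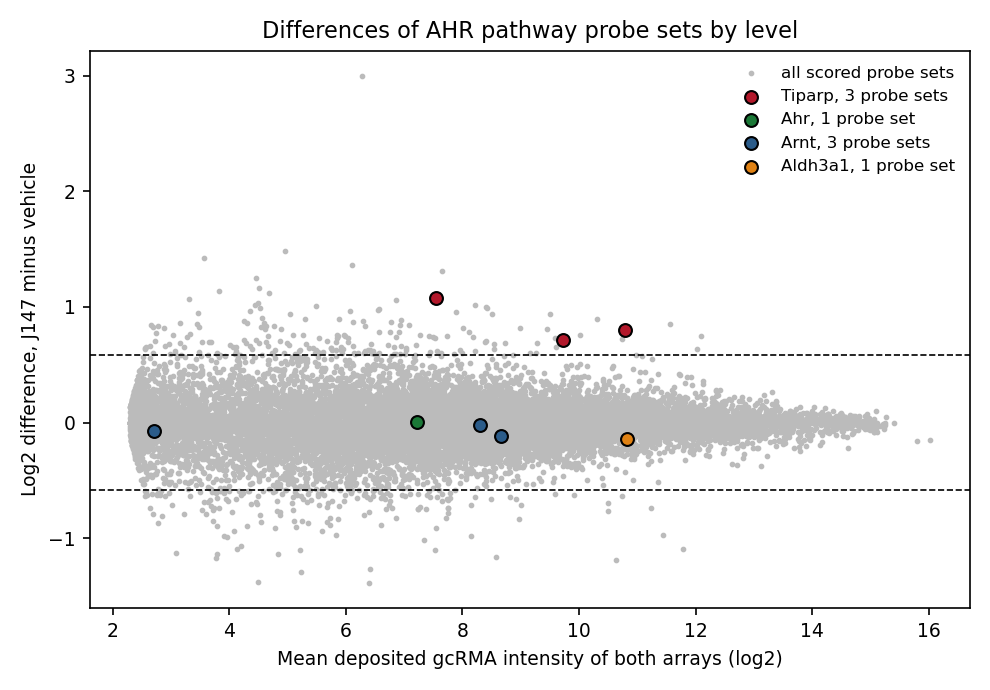
The vertical axis gives the log2 difference, J147 minus vehicle, against the mean deposited log2 intensity of both arrays (horizontal axis) for the 22545 scored probe sets (grey) and the 8 of the AHR pathway genes (coloured by gene). Dashed lines mark 1.5-fold, and the 3 Tiparp probe sets lie above the upper line while the 5 of Ahr, Arnt and Aldh3a1 lie near 0.

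The CYP1 enzymes oxidise polycyclic aromatic compounds, among them many AHR ligands, and Cyp1a1 is the best-known readout of an active receptor. Cyp1a1 was measured by 1 probe set, 1422217_a_at, which read 2.23 with vehicle and with J147, the lowest value of the table. Cyp1a2, its neighbour in the genome, was also measured by 1 probe set, 1450715_at, with 2.23 on both arrays. Of the 3 probe sets of Cyp1b1, a form found in many tissues outside the liver, 1416613_at and 1432081_at were at 2.23 on both arrays. The third, 1416612_at, had the same value of 2.25 on both. Ahrr, whose product competes with AHR for ARNT and represses the same targets, was measured by 1 probe set, 1420796_at, at 2.23 on both arrays. None of the 6 probe sets of Cyp1a1, Cyp1a2, Cyp1b1 and Ahrr was scored, and none differed between the arrays. No fold is given for them. Identical values on both arrays are not particular to these genes or to the lowest value. The PARP family genes Tnks and Tnks2, named after their values were seen, read 8.35 and 11.1 on both arrays.

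The lowest value does not show that an mRNA was absent. Within 0.01 of it lay 46.3% of all probe sets with vehicle and 46.0% with J147. Genes measured by several probe sets show how far probe sets of a gene can part: 1450695_at of Ahr was at 2.23 on both arrays, although it has the same target accession as 1422631_at, at 7.22 and 7.23. Over the whole table, 2408 target accessions had 2 or more probe sets with at least 1 of them at a log2 intensity of 6 or more on both arrays, and for 229 of these, 9.51%, another probe set was at the lowest value on both. Grouped by gene, this was so for 1793 of 5396 genes, 33.2%. For Cyp1a1, Cyp1a2 and Ahrr there was no other probe set to set beside the one at the lowest value.

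Ahr itself read 7.22 with vehicle and 7.23 with J147 by 1422631_at, a log2 difference of 0.01 against an SD of 0.19 among its 500 neighbours in level. The arrays were thus level for the receptor mRNA by its measurable probe set. Arnt, the obligate partner of AHR and also of the hypoxia factor HIF1A, had 5 probe sets, of which 3 were scored. Probe set 1419996_s_at read 8.71 with vehicle and 8.60 with J147, a log2 difference of -0.12 against an SD of 0.16. Probe set 1437042_at had 8.31 and 8.30, a difference of -0.02 against an SD of 0.16, and the dim 1421721_a_at had 2.74 and 2.67, a difference of -0.08 against an SD of 0.17. All 3 were slightly lower with J147, each by less than the SD of its neighbours. The other Arnt probe sets, 1449696_at and 1425064_at, were at 2.24 and 2.23 with no difference between arrays.

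Aldh3a1, which clears aldehydes and is known as an abundant protein of the cornea, gave a signal far from the lowest value on both arrays. Its probe set 1418752_at read 10.89 with vehicle and 10.75 with J147 on the log2 scale. The log2 difference was -0.14, or 1.10-fold lower with J147, against an SD of 0.13 among its neighbours, and 3425 of the 22545 scored probe sets had a difference at least as far down. The value with J147 was thus the lower of the pair, by about the size of the SD of its neighbours. Over the 5 scored probe sets of Ahr, Arnt and Aldh3a1, the log2 differences ran from -0.14 to 0.01 with a median of -0.08.

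The promoters of Tiparp, Arnt, Cyp1a1, Cyp1b1 and Ahrr are shown because each holds the core of the AHR response element close to its start, and of these genes Tiparp was the one higher with J147. The sequences are the 250 bases before an annotated start in RefSeq (GRCm38.p6), written 5′ to 3′ on the strand of the gene, with each GCGTG, or CACGC where the core lies on the other strand, in capitals. They lie at chr3:65528197-65528446 on the plus strand for Tiparp, chr3:95434140-95434389 on the plus strand for Arnt, chr9:57697363-57697612 on the plus strand for Cyp1a1, chr17:79715062-79715311 on the minus strand for Cyp1b1 and chr13:74292332-74292581 on the minus strand for Ahrr.
Tiparp: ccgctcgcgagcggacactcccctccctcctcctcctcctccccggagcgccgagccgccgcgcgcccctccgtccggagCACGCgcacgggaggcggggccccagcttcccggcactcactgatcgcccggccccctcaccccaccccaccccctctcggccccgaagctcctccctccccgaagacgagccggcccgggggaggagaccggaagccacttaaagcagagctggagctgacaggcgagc
Arnt: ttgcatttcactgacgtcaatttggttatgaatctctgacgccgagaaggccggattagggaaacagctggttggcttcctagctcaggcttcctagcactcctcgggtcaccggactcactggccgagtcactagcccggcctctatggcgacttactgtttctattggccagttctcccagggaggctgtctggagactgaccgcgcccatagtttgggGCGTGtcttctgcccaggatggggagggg
Cyp1a1: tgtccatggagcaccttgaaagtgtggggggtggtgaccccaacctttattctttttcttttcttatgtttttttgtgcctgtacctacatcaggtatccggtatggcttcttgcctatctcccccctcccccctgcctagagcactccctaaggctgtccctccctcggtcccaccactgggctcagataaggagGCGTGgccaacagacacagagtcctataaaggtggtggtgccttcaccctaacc
Cyp1b1: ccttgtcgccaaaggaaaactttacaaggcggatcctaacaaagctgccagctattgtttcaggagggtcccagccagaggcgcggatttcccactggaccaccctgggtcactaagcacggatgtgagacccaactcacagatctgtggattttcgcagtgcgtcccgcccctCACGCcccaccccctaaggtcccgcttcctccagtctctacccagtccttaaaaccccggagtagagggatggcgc
Ahrr: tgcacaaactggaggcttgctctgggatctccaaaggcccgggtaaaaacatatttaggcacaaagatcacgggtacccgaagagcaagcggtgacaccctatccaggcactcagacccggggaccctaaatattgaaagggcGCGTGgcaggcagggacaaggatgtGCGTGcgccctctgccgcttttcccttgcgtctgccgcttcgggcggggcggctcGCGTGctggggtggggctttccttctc

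Promoter entries were found for 6 of the 8 genes, with none used for Ahr and Aldh3a1. Counted on both strands, the core was found 1 time for Tiparp, 1 time for Arnt, 1 time for Cyp1a1, 1 time for Cyp1b1 and 3 times for Ahrr, and 0 times for Cyp1a2. In Tiparp it began 170 bases before the start, in Cyp1b1 76, in Cyp1a1 54 and in Arnt 29. Of 32536 different promoter windows of this length, 28.3% held the core at least once and 2.79% held it at least 3 times. The Tiparp window was also the richest of the 6 in G and C, at 75.2%, against a median of 52.4% over all windows. The longer form TNGCGTG, which contains the core, was found in Ahrr alone of the 6 and in 4.13% of all windows. A match is a run of letters and not a shown binding site, and the enhancer of Cyp1a1 with its known response elements lies further upstream than this window. The core was thus present in the window of Tiparp, which was higher with J147, and in that of Arnt, which was measured and was not higher, with log2 differences of -0.12, -0.02 and -0.08. It was also present in those of Cyp1a1, Cyp1b1 and Ahrr, whose values, at or just above the lowest, were the same on both arrays. At the lowest value a fall cannot show, and a rise shows only where it takes the signal above that value.

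**Figure D3:**
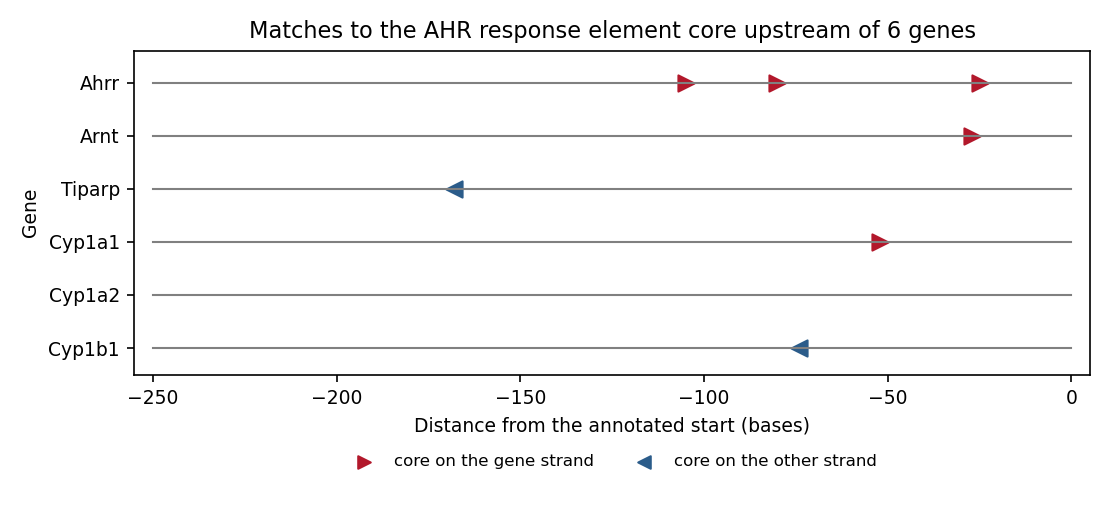
Position of each match to the core of the AHR response element (triangles, pointing right for the strand of the gene and left for the other) as distance in bases from the annotated start (horizontal axis) in the 250 bases upstream of 6 genes (vertical axis). Tiparp, Arnt, Cyp1a1 and Cyp1b1 have 1 match each, Ahrr has 3 and Cyp1a2 has 0.

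Beyond these genes, 8 of 16 annotated genes from a list of other genes known to be induced through AHR were scored, and the remaining 8 had every probe set at the lowest value, among them the monooxygenase genes Cyp2s1 and Fmo2. Of the 8 scored, 1 was at least 1.5-fold higher and 1 at least 1.5-fold lower. Over all scored genes 0.556% were higher and 86 or 0.81% lower by that size, and of the 8 AHR pathway genes Tiparp alone was among them. The median difference was -0.05 log2 units for the list and -0.00 for all scored genes. The gene that was higher was Ereg, for the EGF receptor ligand epiregulin, which read 7.59 with vehicle and 8.42 with J147 on the log2 scale, 1.76-fold higher. The gene that was lower was Ccng2, for cyclin G2, which read 7.04 with vehicle and 5.78 with J147, 2.40-fold lower. Its second probe set, at a low level, had a log2 difference of -0.59. Nqo1, a quinone reductase of the CYP1 battery named here after its values were seen, read 8.69 with vehicle and 8.61 with J147, a log2 difference of -0.09. The list thus had members on both sides and no common direction. Like the 8 AHR pathway genes, it was chosen with earlier results of these data known.

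Tiparp belongs to the PARP family of enzymes, which attach ADP-ribose to proteins. Of 12 scored PARP genes other than Tiparp, none passed 1.5-fold in either direction, and their median log2 difference was -0.02. The values furthest from 0 were those of Parp11, a mono-ADP-ribosyltransferase, with a log2 difference of -0.29 by its brightest probe set, and Parp6 with -0.21. The other scored probe set of Parp11 had -0.00 and did not show this fall. It read 2.54 on both arrays, a low level against the lowest value of 2.23. The largest difference upward in the list was 0.12. Of all scored genes 0.556% were at least 1.5-fold higher and 0.81% at least 1.5-fold lower. Having none past that size therefore does not set apart this list or the short lists below. The bHLH-PAS factors, the family of AHR and ARNT, had 4 scored genes of 11 annotated, a median of -0.09 and none past 1.5-fold. Among them the circadian factor gene Clock had a log2 difference of -0.19 by its brightest probe set and -0.45 to -0.05 by the others, and Hif3a had -0.31 at a low level, from 3.24 to 2.93.

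Of the genes of AHR chaperones and nuclear partners, 12 of 13 annotated were scored and none passed 1.5-fold, with a median of -0.05. The coactivator genes Ep300 and Ncoa1 had log2 differences of -0.31 and -0.25, although another scored probe set of Ncoa1 was at -0.01. Enzymes that make AHR ligands from tryptophan were mostly not measurable: 6 of 9 genes, among them Ido1 and Tdo2, the enzymes of the first step, were at the lowest value by every probe set on both arrays. The 3 scored, with Afmid at 0.17 and Kyat3 at 0.25, had a median of 0.17. Afmid was at a low level, from 3.02 to 3.19. Of other cytochrome P450 genes and their partners, 6 of 11 annotated were scored, with a median of -0.11 and none past 1.5-fold. Cyp51, a sterol demethylase, had a log2 difference of -0.24 by its brightest probe set. Its other scored probe sets had -0.30 and, at a low level, -0.35. The electron donor gene Cyb5a had -0.15.

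**Figure D4:**
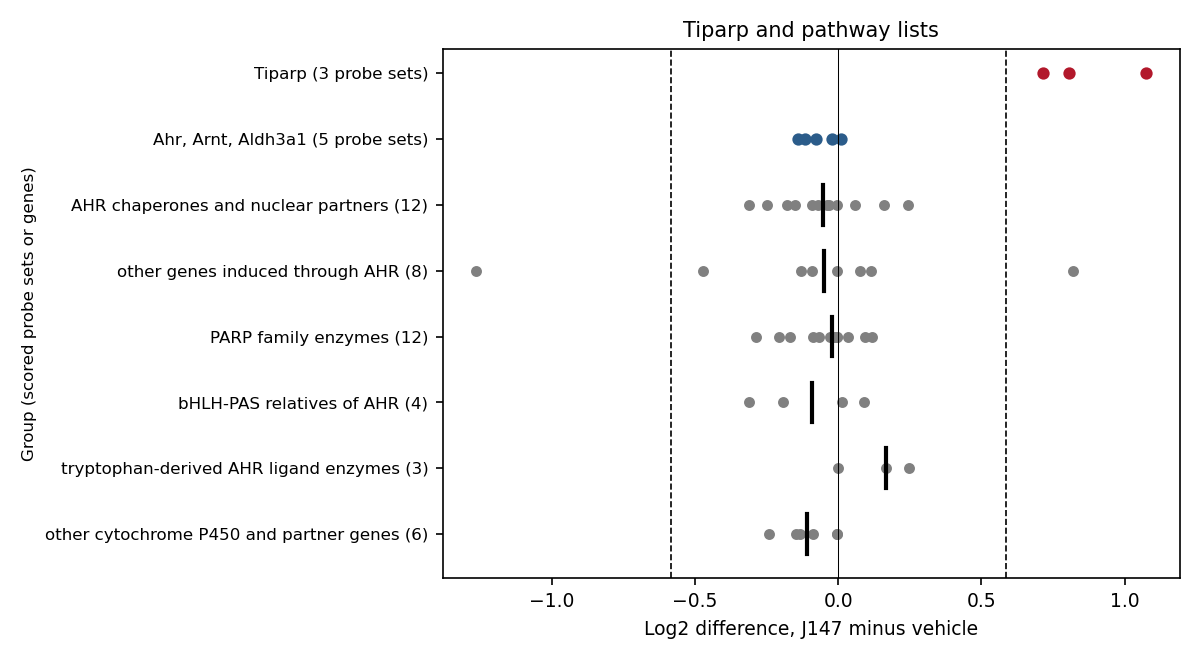
The horizontal axis gives the log2 difference, J147 minus vehicle, of the scored probe sets of Tiparp, Ahr, Arnt and Aldh3a1 (coloured points) and of the scored genes of 6 pathway lists (grey points, number in parentheses, black bar at the median). Dashed lines mark 1.5-fold, and outside them lie the 3 Tiparp probe sets, from 0.72 to 1.08, and Ereg and Ccng2 of the other genes induced through AHR.

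The 3 scored genes whose pair of log2 intensities lay nearest to that of Tiparp were Dhx36, a helicase gene, Yrdc and the kinase gene Map2k3, at distances of 0.32, 0.33 and 0.35 log2 units over the 2 arrays. They were alike mostly in level, since their log2 differences were 0.40, 0.40 and 0.32, all smaller than the 0.80 of Tiparp.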

How the data were processed

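RNA from 1 vehicle and 1 J147 culture of HT22 cells was labelled by 3′ in vitro transcription. Probe sets were summarised by the authors with gcRMA, run in R, and the deposited log2 intensities cover 45101 probe sets, 64 of them controls. The submitters' processing notes name Affymetrix Expression Console 1.0, while the gcRMA version and a genome build are not given in the sources used here. Replicates were not pooled, since there were none.

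Leaving out controls, the median of each array was set to 100, and a mean over both arrays above 100 was required for scoring. Both steps follow the stated methods. Where a gene had several probe sets, the brightest by the mean of both arrays stood for it in counts of genes. Of 45037 probe sets, 34945 had 1 gene symbol in the platform annotation, 932 had several and 9160 had none. Symbols were updated through the Entrez number to RefSeq GRCm38.p6. List genes with no probe set annotated to them alone under their updated symbol, such as Hsp90ab1, Ptges3 and Por, are not analysed here. From each list were named up to 4 scored members past 1.5-fold, or else the 2 with the largest differences, and the 3 genes nearest to Tiparp. The members and lists were chosen with earlier results of these data known. Values within 0.01 of the lowest count as at it and have no order. Alternatives were other scalings, a pseudocount of 50, filters, probe set rules and a 2-fold threshold. Scripts were tested on simulated data. Tools were Python 3.11.15, numpy 2.4.6, pandas 2.3.3, statsmodels 0.14.6 and matplotlib 3.10.9. With 2 arrays, their number limits how precise any value is.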

Additional observations from a re-analysis of the deposited data

How the results depend on the processing

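Results were recomputed without scaling, with quantile normalization, with a lowess correction of span 0.3, with a pseudocount of 50, and with other filters, probe set rules and a threshold of 2-fold. Of the 107 recomputed values 103 were close to those reported, 4 moved and 0 reversed, where close means within 1 SD of the differences of comparable probe sets or list members, or within 1.5 times for a count. All values of Ahrr and the CYP1 genes count as close, judged by the SD over all scored probe sets. Being identical on both arrays at or just above the lowest value, they could hardly move, so their closeness shows nothing. The log2 difference of Tiparp ran from 0.72 to 0.87 over 6 alternatives, with the lowest value from the brightest probe set without a suffix and the highest from the mean of its probe sets. That of Aldh3a1 ran from -0.14 to -0.13 and that of Ahr from 0.01 to 0.04. By a threshold of 2-fold, the 193 probe sets at least 1.5-fold higher became 17 and the 176 lower became 16, by construction. With no filter on intensity, which adds genes at the lowest value, the median of the tryptophan enzymes was -0.00 and that of the other P450 genes was -0.00. The mean of scored probe sets could not be computed for Ahrr and the CYP1 genes, and Cyp1a1 has no probe set without a suffix. No paired analysis was possible because each condition has 1 array. In the genes that lie at it, the lowest value hides any fall and any rise that does not pass it.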
